A study of Mus musculus with 12 samples.

Results

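Tfcp2l1 is a DNA-binding protein related to the grainyhead factors that is known from the naive pluripotency network of mouse embryonic stem cells (ESCs) and from the collecting duct of the kidney. ESCs stay undifferentiated in 2i, a serum-free medium in which 1 inhibitor blocks the kinase GSK3 and so keeps β-catenin stable, and another blocks the kinase MEK and so silences ERK signalling. Factors of the grainyhead family control epithelial genes in many tissues, and Tfcp2l1 joins the LIF and Wnt pathways to the naive state.

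The comparison described here set 4 RNA-seq libraries of ESCs labelled as Tfcp2l1 knockout against 4 libraries of wild-type ESCs, 8 of the 12 libraries of the series, to find transcripts that depend on Tfcp2l1 in 2i. Both groups grew in the same 2i medium, made from DMEM/F12 and Neurobasal with N2 and B27 supplements, LIF at 1000 units/mL, CHIR99021 at 3 µM and PD0325901 at 1 µM. The other 4 libraries, from wild-type ESCs kept in LIF and 15% fetal bovine serum (FBS), are given beside the results as levels only. The labels name neither the ESC line nor how the allele was made, nor whether the knockout is 1 clone. Levels are the authors' FPKM (fragments per kilobase of transcript and of library size), summed per gene. They give no read counts, so the depth is unknown. Of 23496 genes, 12329 reached 1 FPKM in at least 4 of the 12 libraries and were tested. A gene low in 1 of the 2i groups could thus enter through the other group or through FBS.

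On the log2(FPKM + 1) scale, pairs of libraries correlated across genes at 0.9811 to 0.9934 (Pearson's r) in wild type in 2i, 0.9916 to 0.9953 in the knockout and 0.9615 to 0.9735 from one group to the other. For transcripts of 5 to 20 FPKM the authors' bounds reached a median of 8.0% to 9.8% of the value to either side. Fibroblast markers differed between the 2 groups in 2i. Of 20 markers, 16 were higher in the knockout (80% against 24% of all tested genes) and 1 was lower (5% against 21.4%). Their mean log2(FPKM + 1) was 3.79, 3.93, 4.08 and 4.23 in wild-type replicates 1 to 4. In knockout replicates 1 to 4 it was 4.35, 4.55, 4.67 and 4.96, and in FBS 2.98 to 3.27. It thus rose with the replicate number inside each 2i group as well as between them, and the cause was not tested. The summed FPKM of the markers ran from 995 to 1142 in wild type in 2i, from 1079 to 1566 in the knockout and from 477 to 571 in FBS. No marker was at 0. Beside the results below, counts are also given from a fit with the mean log2 level of these markers as a covariate. This level did not overlap between the 2 groups in 2i, so that fit can hardly separate it from the genotype. A call can be lost through lower precision alone, and a lost call does not tie a gene to fibroblasts. Tmem185b, for example, had a log2 change of -0.46 without and -0.41 with the covariate, and limma's adjusted p was 0.00382 and 0.184. In bulk RNA, more cells of a type and more RNA per cell cannot be told apart.

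Tfcp2l1 itself was lower but not absent in the libraries labelled knockout. Wild type held 133, 143, 112 and 139 FPKM, and the knockout 76.1, 72, 82.9 and 84.7 FPKM, so the groups did not overlap and the knockout mean was 59.8% of the wild-type mean (log2 change -0.73, SE 0.10, adjusted p = 0.000119). An FPKM covers the whole transcript, and the part of the gene that was deleted is not in the sources used here, so this level does not check the label. Of 11 tested genes within 1 Mb of Tfcp2l1, 4 passed (36.4%, against 45.3% of all tested genes), Tfcp2l1 included, and all 4 were lower in the knockout. The next tested gene, Gli2, a transcription factor of Hedgehog signalling, stood at 23.7, 22.6, 21.4 and 18.7 FPKM in wild type and at 12, 11.7, 11.9 and 13.1 FPKM in the knockout (log2 change -0.77, SE 0.08, adjusted p = 1.09e-05). Ralb, a Ras-like GTPase, fell from 29 to 20.2 FPKM on average, and Tmem185b from 7.31 to 5.03 FPKM. Clasp1, on the other side of Tfcp2l1, was at 7.15 and 8.19 FPKM and did not pass.

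Over all tested genes, 2954 were higher (24%) and 2635 lower (21.4%) in the knockout at an adjusted p under 0.05, and the median log2 change was 0.012. A log2 change of 1 or more in size was reached by 358 of these (2.9% of the tested genes), 160 of them higher (1.3%) and 198 lower (1.61%). This count and its balance depended on the pseudocount: with 0.1 in place of 1 it was 747, with 415 higher and 332 lower. The balance turned with the level of the gene. Among genes under 2 FPKM on average, 28% were higher and 17.7% lower, whereas among those over 50 FPKM 20.6% were higher and 28.2% lower. With the fibroblast marker level as a covariate, 834 were higher and 1153 lower, and 1903 genes passed in both fits, 1 of them with the opposite sign. Most of the 40 genes with the largest changes kept their call: 17 of the 20 largest rises and all 20 of the largest falls also passed with the covariate.

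**Figure D1:**
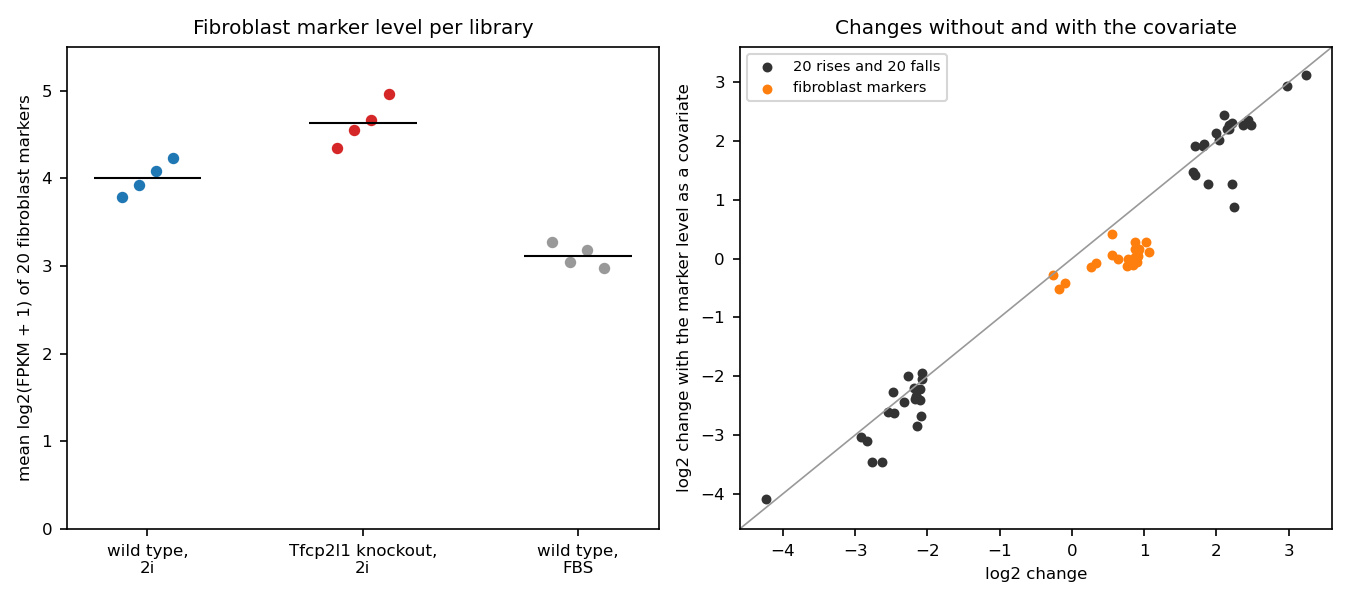
Left, mean log2(FPKM + 1) of 20 fibroblast markers in each library (points) and the mean of each group (lines). Right, log2 changes (knockout minus wild type in 2i) without and with the marker level as a covariate, for the 40 genes with the largest changes and for the markers: the 4 knockout libraries, at 4.35 to 4.96, lie above the 4 wild-type libraries in 2i, and the 40 genes keep their sign with the covariate, Atp6v0c-ps2 (2.24 without and 0.88 with it) and Lefty2 (2.22 and 1.27) lying farthest from the diagonal. No marker passes as higher with the covariate. It is the mean of these same markers, so their joint rise is taken out by construction.

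The 20 largest rises included transcription factors of early development. Olig3, a basic helix-loop-helix factor of neural progenitors, was at 0.204, 0.14, 0.319 and 0.145 FPKM in wild type and at 3.64, 4.2, 4.07 and 3.23 FPKM in the knockout (log2 change 1.99, SE 0.09, adjusted p = 9.52e-09). Myb, a transcription factor of blood progenitors that was not among the 20, went from between 0.354 and 0.455 FPKM to between 2.86 and 3.6 FPKM. These 2 were the genes that lay under 0.5 FPKM in all 4 wild-type libraries and at 2 FPKM or more in all 4 knockout libraries. Neurog1, which drives neuronal fate, was at 0.311, 0.336, 0.708 and 0.553 FPKM against 5.91, 5.86, 9.05 and 8.55 FPKM (log2 change 2.48, SE 0.22, adjusted p = 3.16e-06). Lef1, the DNA-binding partner of β-catenin, was at 1.1, 0.572, 1.84 and 1.26 FPKM against 10.3, 9.53, 7.52 and 7.12 FPKM (log2 change 2.15, SE 0.18, adjusted p = 2.11e-06). In FBS these genes were at means of 0.668 (Olig3), 5.13 (Myb), 1.51 (Neurog1) and 5.02 FPKM (Lef1).

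The others of the 20 largest rises were of mixed function. Fgfbp1, a carrier that releases FGFs from the matrix, was at 5.31, 5.07, 5.66 and 5.68 FPKM in wild type and at 33.2, 34.2, 22.3 and 20.3 FPKM in the knockout (log2 change 2.11, SE 0.27, adjusted p = 5.94e-05). Selenop, the plasma carrier of selenium, was at 1.66 to 2.01 FPKM and at 9.47 to 12.3 FPKM (log2 change 2.04, SE 0.09). Gad1, the enzyme that makes the transmitter GABA, was at 1.15, 0.761, 1.2 and 1.46 FPKM against 7.18, 7.51, 4.63 and 4.83 FPKM (log2 change 1.70, SE 0.15, adjusted p = 3.01e-06). No knockout library of these genes reached down into the wild-type range, which the choice of the 20 rises required. Cidea, a protein of lipid droplets, was at 5.42 to 7.99 FPKM and 19.8 to 28.1 FPKM, and at a mean of 1.46 FPKM in FBS. Plac8, named for its placental expression, was at 0.371 to 1.01 and 3.56 to 5.19 FPKM. Peg10, an imprinted gene that the placenta needs, was spread widely: 13.7, 24.1, 7.42 and 14.9 FPKM in wild type and 32, 93.8, 49.8 and 47.2 FPKM in the knockout, with a log2 change of 1.82, SE 0.32 and adjusted p of 0.000685, and it lies on chromosome 6, described below. The pseudogene Atp6v0c-ps2 had the widest spread of the 20, at 11.4, 3.15, 31.2 and 62 FPKM in wild type and 72.5 to 92.5 FPKM in the knockout (log2 change 2.24, SE 0.61). For Lefty2, for the pseudogene Atp6v0c-ps2 and for the retrogene Rps27rt the adjusted p was 0.11, 0.611 and 0.117 with the marker covariate, and the last pair have near-identical copies from which reads may come.

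The largest falls took several genes to near silence. Ppp1r14d, an inhibitor of protein phosphatase 1, held 23.2, 25.3, 12.8 and 19.2 FPKM in wild type and 0.146, 0.0481, 0 and 0.21 FPKM in the knockout (log2 change -4.23, SE 0.16, adjusted p = 4.75e-09). Klhdc7a, a kelch-domain protein, was at 3.04 to 4.29 FPKM and at 0.0569 to 0.0977 FPKM. Il34, a ligand of the macrophage receptor CSF1R, was at 4.18, 3.33, 6.39 and 4.67 FPKM and at 0.374, 0.282, 0.272 and 0.257 FPKM (log2 change -2.10, SE 0.12, adjusted p = 1.59e-07). With Ace, Tmem117, Vwf and Xlr5a, these made 7 genes at 2 FPKM or more in all 4 wild-type libraries and under 0.5 FPKM in all 4 knockout libraries. Ace, the angiotensin-converting enzyme, was at 2.16 to 3.44 and 0.364 to 0.469 FPKM, and Tmem117 at 3.16 to 4.34 and 0.156 to 0.304 FPKM.

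Others kept a measurable level. Hap1, a partner of huntingtin in vesicle transport, was at 40.3, 37.8, 38.4 and 38.8 FPKM in wild type and at 6.79, 7.05, 7.96 and 9.73 FPKM in the knockout (log2 change -2.17, SE 0.10, adjusted p = 1.41e-08). Cmtm7, a membrane protein of the MARVEL family, was at 80.6, 89.1, 72.7 and 72.4 FPKM against 14.1, 15.8, 18.2 and 19.9 FPKM (log2 change -2.15, SE 0.10, adjusted p = 1.21e-08). Laptm5, a lysosomal membrane protein best known from blood cells, was at 46.8 to 60.2 FPKM and 9.93 to 13.8 FPKM (log2 change -2.16, SE 0.10). The defining blood cell marker Ptprc was at means of 0.00392 and 0.00359 FPKM and Csf1r at 0.0364 and 0.0389 FPKM, so these were at or near 0 in both groups. Ptges, the enzyme that finishes prostaglandin E2 synthesis, was at 10.3 to 18.9 FPKM and 2.01 to 2.45 FPKM. Apom, a carrier of lipids in plasma, was at 6.06 to 12.3 and 0.707 to 1.8 FPKM, and Fkbp6, a germ-cell chaperone partner, at 22.2 to 46.4 and 4.28 to 9.19 FPKM. The mean levels in FBS were 8.2 FPKM for Hap1, 14.1 FPKM for Cmtm7, 14.7 FPKM for Laptm5 and 3.65 FPKM for Ptges.

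**Figure D2:**
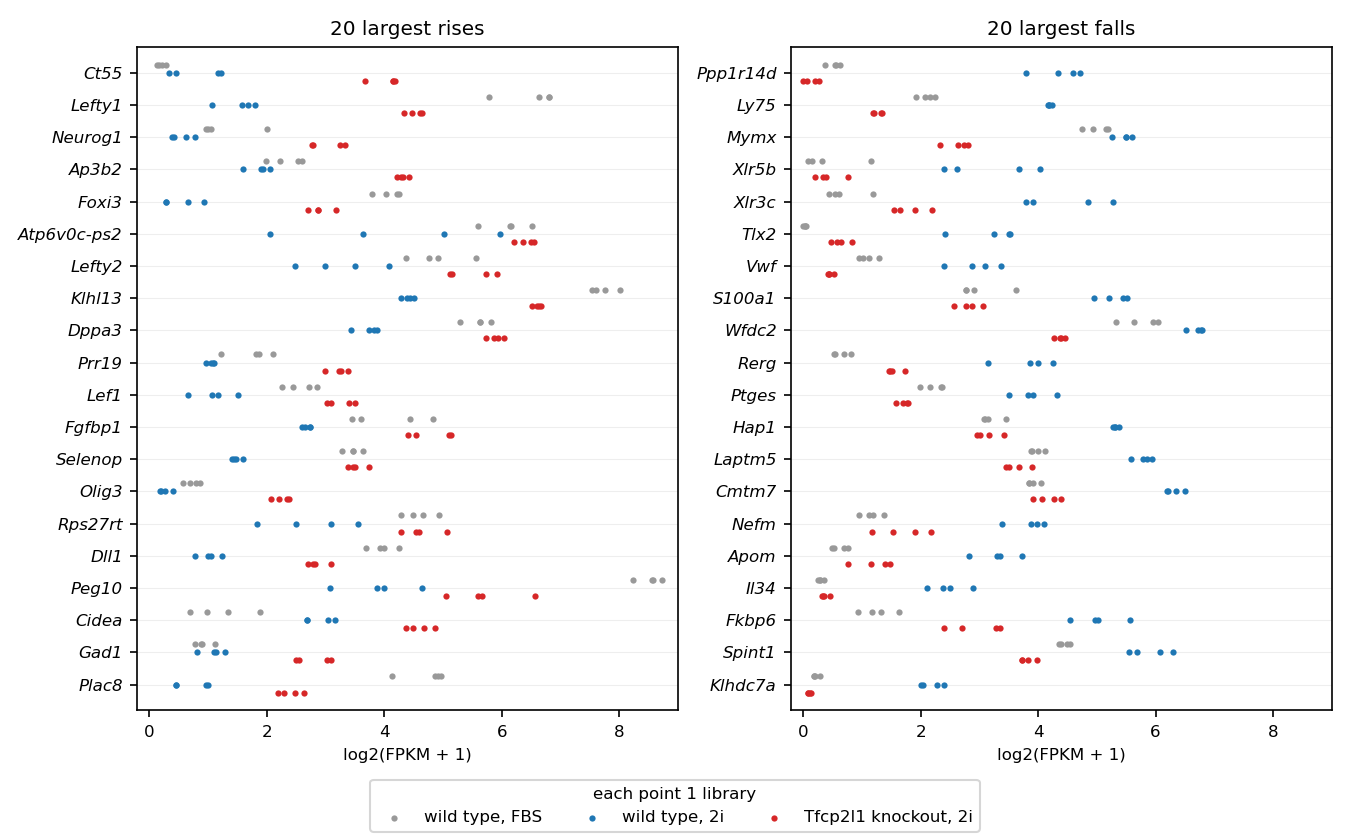
Level, as log2(FPKM + 1), of the 20 genes with the largest rises and the 20 with the largest falls in the knockout against wild type in 2i, 1 point per library and 4 libraries per group. In each gene the knockout and wild-type points in 2i do not overlap, which the choice of genes required; Ppp1r14d lies at or near 0 in the knockout.

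Epithelial genes changed in both directions. Of 40 tested genes of tight junctions and membrane serine proteases, 8 rose and 14 fell (35% against 21.4% of all tested genes; median log2 change -0.06), and with the covariate 3 rose and 10 fell. The matriptase St14, a membrane protease, was at 41.4, 49.6, 30.6 and 35.2 FPKM in wild type and at 11.5, 11.8, 10.7 and 10.9 FPKM in the knockout (log2 change -1.70, SE 0.13, adjusted p = 1.02e-06). Its inhibitor Spint1 was at 66.4, 77.6, 45.8 and 50.5 FPKM against 12.3, 12.3, 13.2 and 14.8 FPKM (log2 change -2.08, SE 0.13, adjusted p = 2.49e-07). Protease and inhibitor thus fell together, as did Prss8, a protease that acts with St14 (3.44 to 1.46 FPKM on average). The related inhibitor Spint2, at 56.3 to 77.8 FPKM in the 8 libraries, did not pass. The claudins, which seal the space between cells, split: Cldn4 fell from 86.6 to 28.3 FPKM and Cldn7 from 6.22 to 3.41 FPKM, while Cldn6 rose from 5.83, 6.08, 4.97 and 5.89 FPKM to 17.3, 17.9, 15.2 and 16.7 FPKM (log2 change 1.41, SE 0.08, adjusted p = 8.62e-08). Ildr1, a protein of the junctions between 3 cells, was at 15.2 to 18.6 FPKM and at 4.9 to 6.22 FPKM.

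Cadherins and their partners changed in both directions. Of 24 tested cadherins, protocadherins and partners, 8 rose (33.3% against 24%) and 9 fell (37.5% against 21.4%), with a median of 0.05, and with the covariate 2 rose and 7 fell. E-cadherin (Cdh1) was at 123, 136, 110 and 116 FPKM in wild type and at 69.2, 66.9, 73.4 and 77.6 FPKM in the knockout (log2 change -0.75, SE 0.07, adjusted p = 4.08e-06). Plakoglobin (Jup), which ties cadherins to the cytoskeleton, was at 27.7 to 32.3 and 13.9 to 15.8 FPKM, and Celsr1, a cadherin of planar polarity, at 6.08 to 6.96 and 1.98 to 2.24 FPKM. Those that rose included P-cadherin (Cdh3), at 1.71 to 3.81 and 4.57 to 6.18 FPKM, Cdh11, a cadherin of mesenchymal cells, at 1.75 to 3.32 and 4.1 to 6.86 FPKM, and the cadherin partner p120-catenin (Ctnnd1), at 44.8 to 49.3 and 51.2 to 53.6 FPKM. β-catenin (Ctnnb1), which serves both junctions and Wnt signalling, was at 165 to 186 FPKM and 175 to 181 FPKM and did not pass. Among 27 tested integrins and matrix receptors, 6 rose and 5 fell, shares near those of all tested genes, and with the covariate none rose and 6 fell. Itga5, a fibronectin receptor subunit, fell from 22 to 30.1 FPKM to 13 to 14.1 FPKM.

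Genes of the renal collecting duct, where Tfcp2l1 acts in the adult kidney, changed in both directions: of 21 tested members 10 fell (47.6% against 21.4%) and 3 rose, with a median log2 change of -0.24, and with the covariate 7 fell and 2 rose. Wfdc2, a small secreted protease inhibitor, was at 108, 109, 104 and 90.9 FPKM and at 19.9, 18.3, 19.8 and 21 FPKM (log2 change -2.32, SE 0.13, adjusted p = 6.31e-08). Fxyd4, a regulator of the sodium pump known from this part of the kidney, was at 1.94, 2.89, 2.81 and 2.81 FPKM and at 0, 0, 0.0856 and 0.21 FPKM (log2 change -1.74, SE 0.10, adjusted p = 1.61e-07). The water channel Aqp3 fell from 156 to 84.7 FPKM on average and the keratin Krt7 from 3.1 to 0.685 FPKM. The 3 that rose were Jag1, Gata3 and Car12, and 3 of the tested members are also in the tight junction list.

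Transporters of nutrients moved mostly down. Of 33 tested amino acid and glucose transporters 16 fell (48.5% against 21.4%) and 4 rose, with a median log2 change of -0.17, and with the covariate 10 fell and 1 rose. The creatine transporter Slc6a8 was at 40.1, 35.8, 52.2 and 39.4 FPKM in wild type and at 18.4, 19.6, 17.4 and 18.6 FPKM in the knockout (log2 change -1.12, SE 0.09, adjusted p = 2.13e-06). Slc38a4, an imprinted amino acid carrier, was at 79.7 to 119 FPKM and 44.4 to 47.1 FPKM, and Slc7a8, which carries large neutral amino acids, at 4.76 to 6.15 and 1.71 to 2.25 FPKM. The peptide transporters Slc15a1 and Slc15a2 fell as well. The main glucose transporter of these cells by level, Slc2a3, spanned 424 to 770 FPKM in wild type and 563 to 755 FPKM in the knockout and did not pass. Hypoxia-response genes, which include 2 of these transporters, gave 6 rises (17.1%) and 10 falls (28.6%) of 35, and with the covariate no rise and 2 falls. Ddit4, an inhibitor of mTORC1, fell from between 63.9 and 87.2 FPKM to between 32.9 and 41.1 FPKM (log2 change -0.97, SE 0.12).

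Genes that handle oxidants changed on both sides, and the falls held Nfe2l2 (NRF2), the transcription factor that turns many of them on. Nfe2l2 was at 42.5, 42.3, 44.9 and 41 FPKM in wild type and at 28.7, 30.5, 27.2 and 25.2 FPKM in the knockout (log2 change -0.60, SE 0.05, adjusted p = 4.02e-06). Of 47 tested members of the list 18 fell (38.3%) and 14 rose (29.8%), with a median of 0.00, and with the covariate 13 fell and 6 rose. The omega-class transferase Gsto1 was at 137, 135, 218 and 170 FPKM against 39.8, 39.9, 39.4 and 43.9 FPKM (log2 change -1.97, SE 0.16, adjusted p = 2.01e-06). Me1, malic enzyme, was at 10.7 to 15.6 and 5.27 to 6.21 FPKM, and Nqo1, the quinone reductase, fell from 23.2 to 14.4 FPKM on average. Glutathione peroxidases Gpx1 and Gpx2 fell from 529 to 367 FPKM and from 8.29 to 1.88 FPKM. Other members did not fall with Nfe2l2. Gclc (means of 22 and 21.9 FPKM), Gclm (24.3 and 26.7 FPKM) and Srxn1 were among 15 that did not pass. Hmox1 rose from 57.6 to 76.2 FPKM and Prdx1 from 253 to 285 FPKM. The metallothioneins, small metal-binding proteins, did not go 1 way: Mt1 rose from 791 to 1254 FPKM and Mt2 from 1150 to 1779 FPKM, while Mt3 fell from 1.61 to 0.541 FPKM. The mu-class transferases Gstm1, Gstm2 and Gstm5 rose.

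Transcription factors of the naive network moved in both directions and by less than the genes above. Of 24 tested, 6 rose (25% against 24% of all tested genes) and 8 fell (33.3% against 21.4%). The median was -0.09, and with the covariate 3 rose and 1 fell. Nanog, which lies on chromosome 6, described below, was at 581, 607, 549 and 577 FPKM in wild type and at 385, 389, 409 and 376 FPKM in the knockout (log2 change -0.57, SE 0.05, adjusted p = 1.64e-06). Tbx3, a T-box factor that supports self-renewal, fell from 94 to 61.8 FPKM on average and Prdm14, a repressor of differentiation and germline factor, from 16.6 to 10.7 FPKM. Oct4 (Pou5f1) was at means of 936 and 805 FPKM and Esrrb at 191 and 166 FPKM, both lower. Those that rose included Tfap2c (24.7 to 29.9 FPKM, then 39.4 to 44.1 FPKM), Sall4, Sp5 and Gbx2. Trim28, the highest member that did not pass, was at 347 to 432 and 409 to 442 FPKM.

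Receptors and effectors of LIF, the cytokine in the medium, gave 8 rises and 7 falls of 37, with a median of 0.01 and shares of 21.6% and 18.9%, near those of all tested genes, and with the covariate 1 rose and 4 fell. Stat3, the factor that LIF activates, was at 22.9, 26.1, 18.5 and 25.8 FPKM in wild type and at 13.8, 13.9, 14.1 and 15.3 FPKM in the knockout (log2 change -0.66, SE 0.09, adjusted p = 0.000101). Pias3, which inhibits Stat3, fell too, from 11.3 to 13.7 FPKM to 7.61 to 8.49 FPKM. Icam1, an adhesion molecule that responds to cytokines, was at 40.1 to 53.7 and 13.3 to 15.9 FPKM (log2 change -1.57, SE 0.08).

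For the FGF and ERK genes, 18 of 39 rose (46.2% against 24%) and 6 fell, with a median log2 change of 0.15, with PD0325901 in the medium of both groups. With the covariate 7 rose and 3 fell. The feedback inhibitor Spry2 was at 81.9, 79.8, 75.4 and 82.7 FPKM in wild type and at 141, 138, 133 and 130 FPKM in the knockout (log2 change 0.75, SE 0.05, adjusted p = 1.81e-07). ERK1 (Mapk3) was at 21.9 to 24.3 and 35.7 to 36.7 FPKM, and the ERK-induced genes Dusp6 and Egr1 rose from 15.6 to 26.6 and from 25.8 to 39.1 FPKM on average. The receptor Fgfr2 was at 0.292 to 0.463 and 1.49 to 1.9 FPKM. Etv4, a factor induced by ERK, went the other way: 12, 15, 8.15 and 17.4 FPKM against 2.38, 3.77, 3.07 and 2.73 FPKM (log2 change -1.79, SE 0.20, adjusted p = 2.45e-05). Its relative Etv5 was at 83.9 to 104 and 81.3 to 129 FPKM and did not pass.

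In the Wnt pathway, which CHIR99021 drives in both groups, 16 of 38 tested ligands, receptors and inhibitors rose (42.1%) and 7 fell, with a median of 0.18, and with the covariate 5 rose and 5 fell. Wnt8a, a ligand of the early streak, was at 0.0287, 0.0219, 0 and 0.0292 FPKM in wild type and at 2.14, 2.54, 1.95 and 1.42 FPKM in the knockout (log2 change 1.55, SE 0.12, adjusted p = 1.02e-06). The receptor Fzd2 was at 1.28 to 1.66 and 3.16 to 3.46 FPKM. The pathway's own target and inhibitor Axin2 rose from 13.3 to 19.2 FPKM on average. Sfrp1, a secreted inhibitor of Wnt ligands, was at 68.1, 73.4, 51.4 and 63.6 FPKM against 31.4, 31.3, 33.5 and 43.3 FPKM (log2 change -0.86, SE 0.12, adjusted p = 0.000104). The TCF/LEF factors, which carry β-catenin to DNA, did not all move alike: Lef1 and Tcf7l2 rose and Tcf7l1, the repressor of the family, fell from 52.2 to 33 FPKM.

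In the TGF-β superfamily 19 of 51 rose (37.3%) and 11 fell, with a median of 0.09, and with the covariate 3 rose and 4 fell. Nodal, the ligand, fell from 49.7 to 38.1 FPKM and its co-receptor Tdgf1 from 252 to 197 FPKM, while the Nodal inhibitor Lefty1 was at 2.2, 1.11, 2.49 and 1.99 FPKM in wild type and at 21.1, 24, 23.3 and 19.2 FPKM in the knockout (log2 change 2.98, SE 0.21, adjusted p = 5.48e-07). Smad7, the intracellular inhibitor, was at 28.5, 28.6, 25.3 and 23.3 FPKM against 10.5, 10.5, 9.43 and 9.53 FPKM (log2 change -1.32, SE 0.07, adjusted p = 9.5e-08). The BMP target Id1 was at 10.1 to 12.1 and 23.2 to 29.2 FPKM. Id3, a related BMP target at a higher level, was at 136 to 153 and 139 to 166 FPKM and did not pass. Gdf15, a stress-induced member of the family, fell from between 11.9 and 18.3 FPKM to between 3.83 and 5.9 FPKM.

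The Notch ligands Dll1, Dll3 and Jag1 rose, and the pathway's nuclear effector fell. Dll1 was at 1.01, 1.37, 0.717 and 1.07 FPKM in wild type and at 5.9, 7.55, 5.53 and 6.06 FPKM in the knockout (log2 change 1.83, SE 0.13, adjusted p = 4.55e-07). Jag1 was at 2.81 to 3.46 and 5.84 to 7.31 FPKM, and Lfng, a glycosyltransferase that tunes Notch receptors, at 0.568 to 1.03 and 1.73 to 2.04 FPKM. Rbpj, which binds DNA for the pathway, was at 43.8, 44.6, 46.4 and 43.4 FPKM against 32.7, 33, 30.9 and 31.5 FPKM (log2 change -0.46, SE 0.04, adjusted p = 3.68e-06). The target Hes1 fell from 32.1 to 23.4 FPKM and Hey1 rose from 1.66 to 2.39 FPKM. Over the list, 11 of 32 rose (34.4%) and 7 fell (21.9%), with a median of 0.03, and with the covariate 5 rose and 3 fell. Of 13 tested Hedgehog genes 3 rose (23.1%) and 2 fell (15.4%), and with the covariate none rose and 1 fell. The 3 Gli factors split, with Gli2 lower as above, Gli1 at 0.691 to 1.9 and 1.96 to 2.75 FPKM, and Gli3 at 1.12 to 2.2 and 3.4 to 3.56 FPKM, both higher. With the covariate the adjusted p was 0.12 for Gli1 and 0.096 for Gli3.

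Of 58 tested developmental transcription factors, 32 rose (55.2% against 24%) and 8 fell, with a median log2 change of 0.31, and with the covariate 14 rose and 4 fell. Cdx2, a factor of trophectoderm and posterior body, was at 0.608, 0.748, 0.612 and 0.697 FPKM in wild type and at 3.59, 3.83, 3.82 and 2.92 FPKM in the knockout (log2 change 1.44, SE 0.10, adjusted p = 4.55e-07). Foxi3, a factor of ectodermal placodes, was at 0.219 to 0.914 and 5.51 to 8.1 FPKM, and Rhox9, a homeobox gene of the germline and placenta, at 1.07 to 1.23 and 3.44 to 4.81 FPKM. Brachyury (T), of the primitive streak, and the BMP-responsive Msx2 rose from 0.634 to 2.84 and from 1.61 to 6.32 FPKM on average. Of the 8 that fell, Tlx2, a homeobox factor of neural crest derivatives, fell most: 8.54, 10.4, 4.31 and 10.5 FPKM against 0.394, 0.497, 0.771 and 0.567 FPKM (log2 change -2.54, SE 0.20, adjusted p = 1.16e-06). Cdx1 fell from 50.5 to 30.5 FPKM while its relative Cdx2 rose. The streak factors Gsc and Eomes fell, from 8.61 to 3.93 and from 3.17 to 1.71 FPKM.

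Markers of other cells were read in the same way. Of 8 tested neural markers 7 rose (87.5% against 24% of all tested genes). Msi1, an RNA-binding protein, fell from between 19 and 23.9 to between 9.84 and 11.7 FPKM. The summed FPKM of the neural list was 43.4 to 54.2 in wild type and 57.6 to 65.5 in the knockout, and 4 of its 15 genes were under 0.5 FPKM in all 8 libraries. Of 12 epiblast markers 5 rose (41.7%) and 1 fell (8.33% against 21.4%), with sums of 85.1 to 108 and 112 to 126. Of 13 trophoblast markers 6 rose (46.2%) and 3 fell (23.1%), with sums of 63.9 to 96.2 and 89.7 to 108. Visceral endoderm gave 3 tested genes, all higher, while 7 of its 13 markers were under 0.5 FPKM in all 8 libraries. With the covariate 3, 4, 5 and 0 of these 4 lists' members rose. The filter bears on these counts. Amn, Neurod1 and Hand1, which rose, were under 1 FPKM in all 8 libraries and entered through FBS. Sox17 (means of 0.697 and 0.304 FPKM) and Sox1 (1.19 and 0.62 FPKM), lower in the knockout, were not tested. Of 9 tested markers of 2-cell-like cells, rare ESCs that switch on genes of the cleavage embryo, 6 rose (66.7%) and none fell, and with the covariate 5 rose. Their summed FPKM of 81 to 286 in wild type and 246 to 453 in the knockout overlapped, with wild-type replicates 2 and 4 and knockout replicate 4 the lowest of their groups. These genes have near-identical copies.

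**Figure D3:**
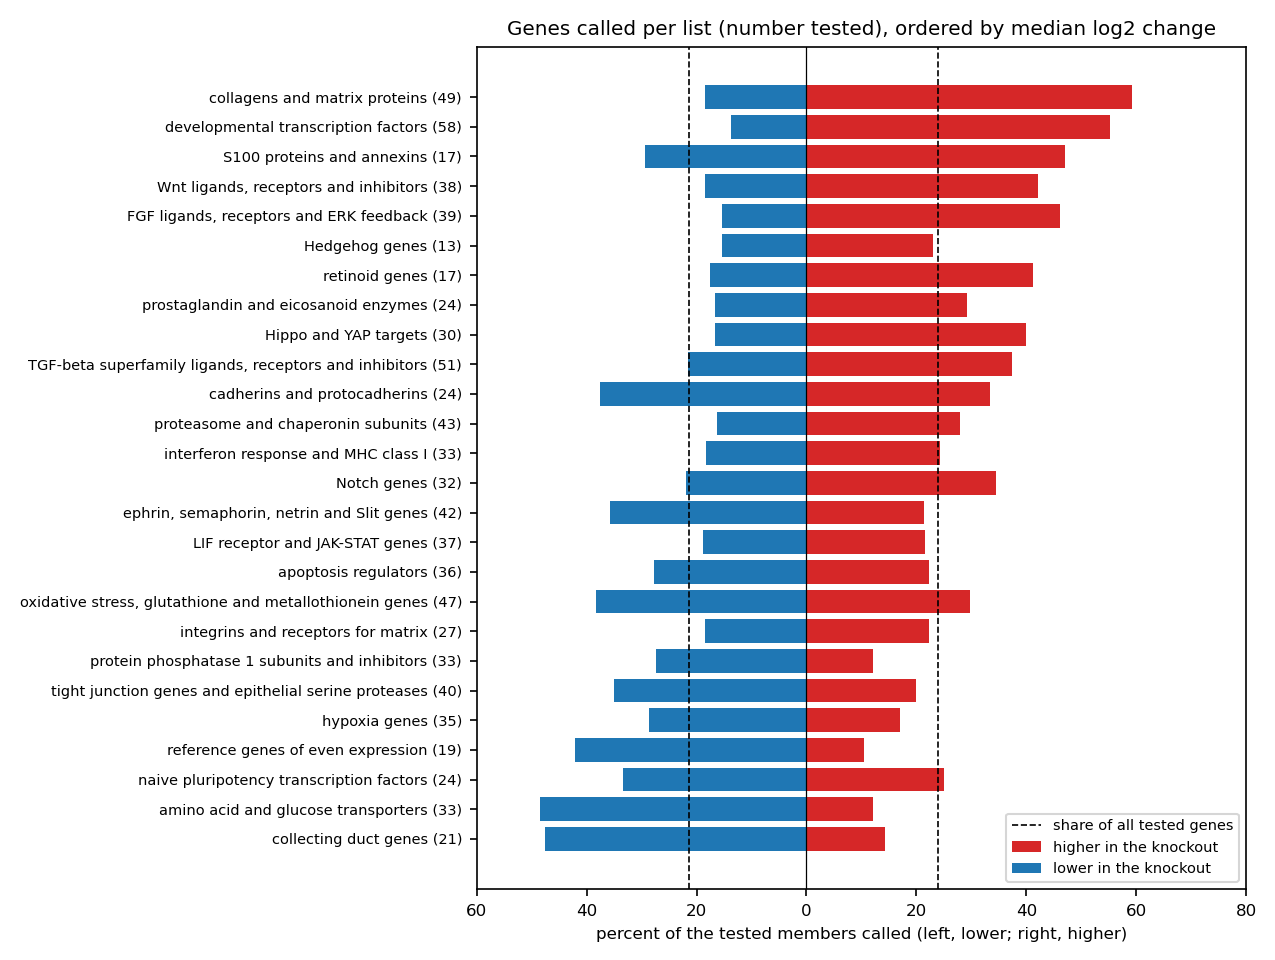
Percent of the tested members of 26 gene lists called higher (red, right) or lower (blue, left) in the knockout, with the number tested in parentheses and the shares of all tested genes, 24% and 21.4%, as dashed lines. Collagens and matrix proteins and developmental factors have the longest red bars; transporters and collecting duct genes have the longest blue bars.

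Among the 26 gene lists, marker lists left aside, collagens and other matrix proteins had the highest share of rises, 29 of 49 (59.2% against 24%). The list held 9 falls (18.4% against 21.4%) and had a median of 0.60. This list shares 11 tested genes with the fibroblast markers. With the marker level, which these 11 genes help to set, as a covariate, 3 rose and 6 fell. Beside Vwf, the clotting factor of vessel walls, the falls included proteins of the basement membrane. Nid1 was at 108, 118, 91.9 and 95.8 FPKM in wild type and at 39.6, 40.5, 42.9 and 46.8 FPKM in the knockout (log2 change -1.26, SE 0.10, adjusted p = 1.54e-06), and the laminin chain Lama1 fell from 6.04 to 2.28 FPKM on average. Osteopontin (Spp1) fell from between 878 and 1040 FPKM to between 563 and 635 FPKM. Serpinh1, a chaperone of collagen, was at 74.1, 72.4, 90.2 and 92.4 FPKM against 207, 215, 182 and 182 FPKM (log2 change 1.25, SE 0.15, adjusted p = 4.13e-05), and with the covariate its adjusted p was 0.027. Sparc, the most abundant member that did not pass, was at 389 to 494 and 330 to 464 FPKM.

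Smaller families held single members with large changes. Of 33 tested subunits and inhibitors of protein phosphatase 1, 4 rose (12.1%) and 9 fell (27.3%, median -0.04), and with the covariate none rose and 4 fell. Beside Ppp1r14d, the inhibitors Ppp1r1a (7.86 to 9.93, then 2.02 to 3.58 FPKM) and Ppp1r14a (12.8 to 17.5, then 9.65 to 10.7 FPKM) fell, while the catalytic subunit Ppp1ca, at 255 to 274 FPKM in the 8 libraries, did not pass. Of 17 S100 proteins and annexins, which bind calcium, 8 rose (47.1% against 24%) and 5 fell (29.4% against 21.4%), and with the covariate 1 rose and 5 fell. The falls S100a1 (42.4, 44.5, 29.9 and 35.9 FPKM, then 4.93, 6.3, 5.86 and 7.33 FPKM) and S100a13 (60 to 71, then 14.7 to 20.9 FPKM) were the largest changes of the list. In the eicosanoid list 7 of 24 rose (29.2%) and 4 fell (16.7%), and with the covariate 3 rose and 5 fell. Alox5ap, which serves leukotriene synthesis, was at 0.171 to 0.722 and 1.7 to 2.86 FPKM, and Alox12 at 1.08 to 2.45 and 0.176 to 0.31 FPKM. Of 42 ephrin, semaphorin, netrin and Slit genes 9 rose (21.4% against 24%) and 15 fell (35.7% against 21.4%), and with the covariate 4 rose and 8 fell. The netrin receptor Unc5b (3.5 to 4.47, then 8.88 to 11.3 FPKM) and the ligand Efnb1 (1.08 to 1.11, then 2.59 to 3.06 FPKM) were higher, and Plxnb2, a semaphorin receptor, was lower (21.4 to 25.1, then 11.9 to 14.1 FPKM).

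Among retinoid genes, 7 of 17 rose (41.2%) and 3 fell (17.6%, median 0.12), and with the covariate 6 rose and 1 fell. The carrier Crabp2 (4.09 to 4.5, then 9.51 to 12.7 FPKM) was higher, while Adh1, which oxidises retinol, was lower (1.2 to 2.13, then 0.285 to 0.753 FPKM). Of 30 Hippo pathway genes and YAP targets 12 rose (40% against 24%) and 5 fell (16.7% against 21.4%), with a median of 0.10, and with the covariate 4 rose and 3 fell. Among those that rose were Tead1, at 19 to 23.5 and 31.2 to 32.9 FPKM, and Nt5e at 1.19 to 2.11 and 4.06 to 4.47 FPKM. In the interferon and MHC class I list 8 of 33 rose and 6 fell, near the background shares, and with the covariate 2 rose and 3 fell. Ifitm1, a membrane protein of germ cells and of antiviral defence, was at 66.1, 71.4, 44.1 and 47.3 FPKM and at 138, 144, 161 and 199 FPKM (log2 change 1.49, SE 0.15, adjusted p = 1.16e-05). Apoptosis regulators gave 8 rises (22.2%) and 10 falls (27.8%) of 36, and proteasome and chaperonin subunits 12 rises (27.9%) and 7 falls (16.3%) of 43. Their medians were -0.00 and 0.04, and with the covariate 0 and 3 rose and 5 and 2 fell. Of 19 genes often used as references 2 rose (10.5%) and 8 fell (42.1%), and with the covariate none rose and 2 fell. Gapdh fell from between 731 and 869 to between 649 and 724 FPKM and Tfrc from between 113 and 128 to between 72.2 and 79.8 FPKM, whereas Eef1a1 did not pass.

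Changed genes sat next to each other at 48 places, counted as runs of at least 3 neighbouring tested genes that all passed and moved by 0.5 or more on the log2 scale in 1 direction. The 48 runs held 176 genes, 27 runs rising and 21 falling, and 122 of the 176 genes also passed with the marker covariate. Over all 12329 tested genes, 863 rose and 778 fell by 0.5 or more and passed. The number of runs that chance alone would give was not tested. Neighbours were not always close: the starts of a run spanned 1.86 to 3055 kb. Coordinates are those of the deposited table, build mm9. On chromosome 2, Ppp1r14d, Spint1 and Rhov, whose starts span 51.1 kb, fell together, with log2 changes of -4.23, -2.08 and -0.95. Rhov, a small GTPase, was at 2.36 to 4.02 and 0.965 to 1.23 FPKM. On chromosome 3, Ankrd35 was at 6.27, 5.8, 5.43 and 5.34 FPKM in wild type and at 0.56, 0.633, 0.583 and 0.644 FPKM in the knockout (log2 change -2.06, SE 0.06, adjusted p = 8.55e-10), and its neighbours Pias3 and Nudt17 fell by 0.57 and 0.67 on the log2 scale.

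On chromosome 9, the genes of the CD3 complex of the T cell receptor fell with Mpzl2 within 72.8 kb. Cd3g was at 4.26 to 6.67 and 0.867 to 2.58 FPKM, Cd3d at 3.63 to 4.94 and 0.306 to 1.07 FPKM, and Cd3e at 5.18 to 6.44 and 1.73 to 2.74 FPKM. Mpzl2, an epithelial adhesion protein, was at 33.3, 36.6, 24.3 and 29.3 FPKM and at 9.03, 8.58, 7.91 and 10.2 FPKM (log2 change -1.67, SE 0.13, adjusted p = 1.22e-06). The CD3 genes thus lay well under Mpzl2 in wild type and fell to similar degrees, by 1.12 to 1.71 on the log2 scale. On chromosome 14 the neurofilament genes Nefl (19.8 to 35.4, then 4.39 to 7.15 FPKM) and Nefm (9.49 to 16.1, then 1.26 to 3.51 FPKM) fell with Dock5 (11.7 to 13.2, then 4.84 to 6.14 FPKM). On chromosome 17, Tfeb, a regulator of lysosomal genes, was at 15.3, 16.7, 13.2 and 14.1 FPKM and at 5.27, 5.96, 5.04 and 6.02 FPKM (log2 change -1.27, SE 0.08, adjusted p = 3.33e-07), next to Pgc and Frs3, which fell by 1.09 and 0.63. Mitf, of the same family as Tfeb, fell in a run on chromosome 6, from 4.22 to 8.86 FPKM to 2.13 to 3.26 FPKM.

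Several runs were families of copies in tandem, where reads may be shared and the members' values are not independent. On the X chromosome all 9 tested Xlr genes of 2 runs, lymphocyte-regulated genes that also act in meiosis, fell by 1.69 to 2.76 on the log2 scale. Xlr3c was at 14, 12.9, 37.8 and 27.7 FPKM in wild type and at 2.15, 1.91, 3.58 and 2.74 FPKM in the knockout (log2 change -2.63, SE 0.30, adjusted p = 2.48e-05), and Xlr3a, Xlr3b, Xlr4a, Xlr5b and Xlr5c likewise were highest in wild-type replicates 3 and 4. Also on X, Rtl8a, Rtl8b and Rtl8c rose beside Ct55, a cancer/testis antigen at 0.263, 0.373, 1.32 and 1.26 FPKM and at 16.7, 17.2, 16.7 and 11.8 FPKM (log2 change 3.24, SE 0.19, adjusted p = 1.23e-07). Hmgn5, a nucleosome-binding protein at 9.04 to 10.7 and 29 to 34.6 FPKM, rose with Sh3bgrl, at 3.97 to 5.66 and 15.8 to 18.2 FPKM. The 5 genes Armcx1, Armcx2, Armcx3, Armcx4 and Armcx6 rose by 0.57 to 1.15. On chromosome 13, 6 runs of replication-dependent histone genes rose. H4c9 was at 7.86 to 13.4 and 16 to 25 FPKM, and H1f1 at 1.25 to 2.37 and 3.96 to 4.63 FPKM. The longest runs had 8 genes: a group of Pramel genes and unnamed models on chromosome 4 and one of unnamed models on chromosome 12, both higher, and Dynlt1 and Tmem181 copies up to Ezr on chromosome 17, lower. The 8 of chromosome 4 were lower in wild-type replicates 2 and 4 than in 1 and 3. Ezr (ezrin), which links membrane to actin, was at 90.8 to 115 and 66.9 to 71.8 FPKM.

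**Figure D4:**
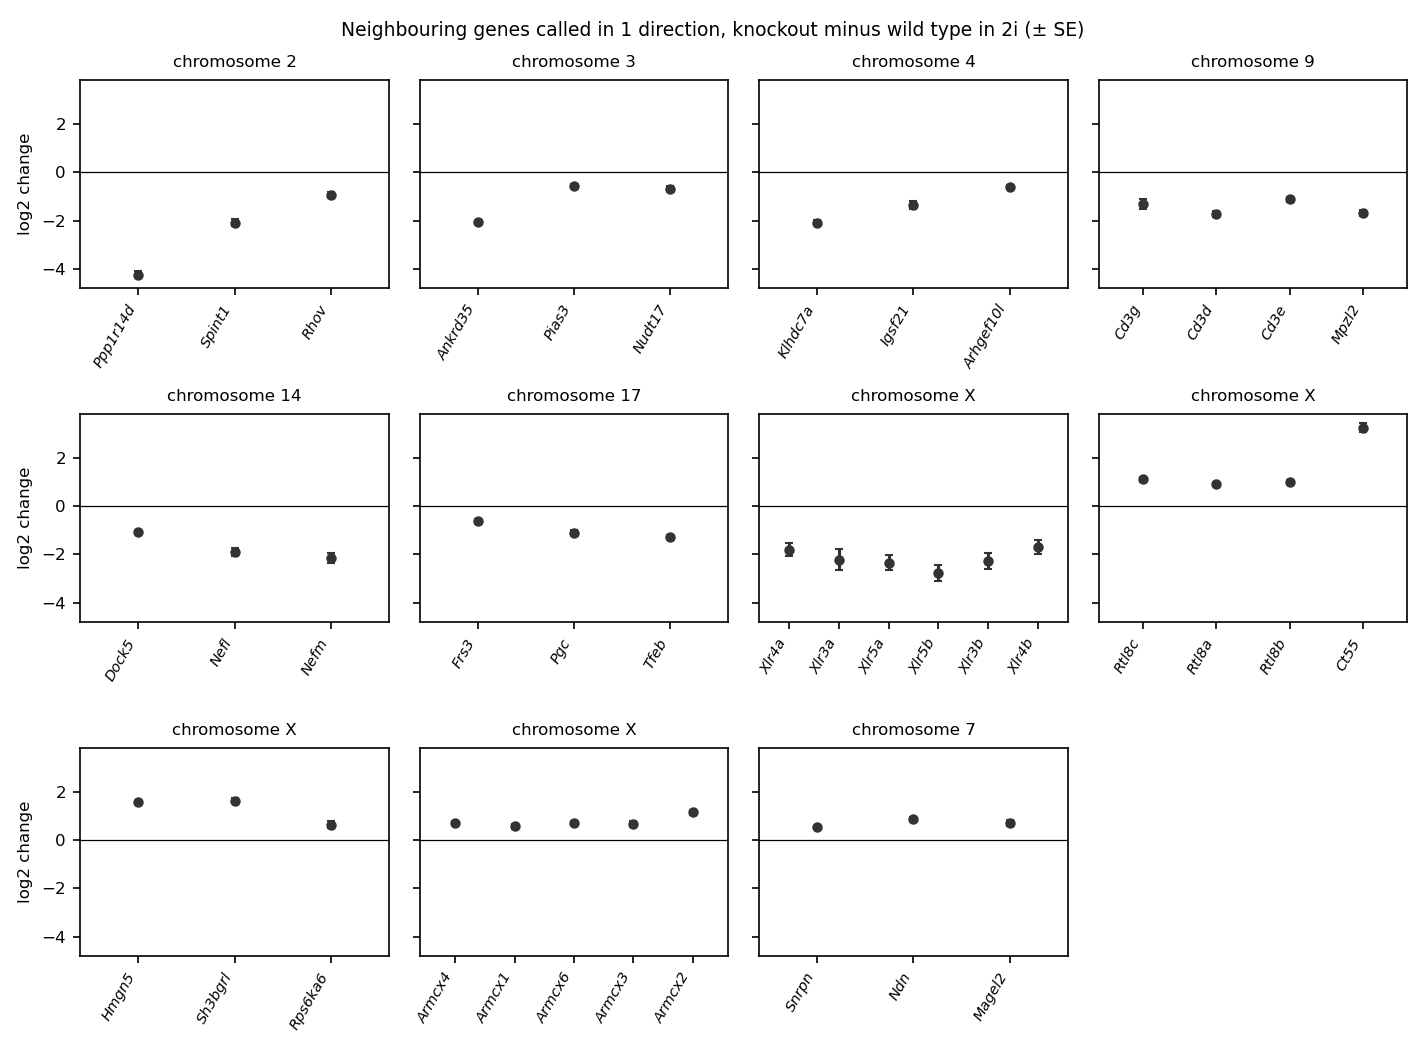
Log2 change in FPKM (knockout minus wild type in 2i, points, ± SE from the fit to 12 libraries) of the genes of 11 of the 48 runs, in order along the chromosome with no scale of distance. Within the chromosome 2 run the changes were -4.23, -2.08 and -0.95; the Ct55, Hmgn5, Armcx and Snrpn runs lie above 0 and the other 7 below.

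Chromosome 6 stood apart. Of its 579 tested genes 13% were higher and 33.7% lower, with a median log2 change of -0.145, against 31% higher and 17.9% lower on X. The offset of chromosome 6 genes from their means over libraries was 0.046, 0.185, -0.11 and 0.211 in wild-type replicates 1 to 4 and -0.0818, 0.021, -0.0834 and -0.0847 in the knockout, so wild-type replicate 3 lay with the knockout. Of the 21 falling runs, 6 lay on this chromosome, and in the run of Vax2, a homeobox factor of the eye, the values were 12.1, 20.4, 4.08 and 12 FPKM against 1.97, 3.12, 2.51 and 2.63 FPKM (log2 change -1.72, SE 0.31, adjusted p = 0.00085). Tlx2, Vwf and Rerg lie on it too, and their wild-type replicate 3 was the lowest of the 4, yet it was above all 4 knockout values. The same held for Nanog (549 FPKM against 376 to 409 FPKM) and, narrowly, for Gapdh (731 FPKM against 649 to 724 FPKM). Tcf7l1, also on chromosome 6, was highest in wild-type replicate 3 (59.3 FPKM). With the chromosome offset removed, 5622 genes passed, 5529 of them in both fits. The part of the offset in single genes was not tested.

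Relatives of Tfcp2l1 are known to bind paired short half-sites in direct repeat. RefSeq promoter sequences (GRCm38.p6) were matched for 75 of the 100 largest falls, 66 of the 100 largest rises and 9783 tested genes, and the 250 bases before each start were searched on both strands for CCNG, then 6 bases, then CCNG. It was found in 33.3% of the falls, 21.2% of the rises and 36.3% of all. The stricter form, with CCAG as both half-sites, was found in 2.67%, 3.03% and 2.76%, which rests on 2 genes among the falls and 2 among the rises and so allows no comparison. Sites of the stricter form in the promoters of 3 of these genes are shown as examples. Their coordinates are on GRCm38.p6 and cannot be set beside the mm9 ones. They are written 5′ to 3′ on the gene's strand, with the half-sites in capitals. CTGG marks a pair on the other strand.
Ankrd35, chr3:96670047-96670076, + strand: cttagggcCTGGaagtcgCTGGtgcggagg
Fxyd4, chr6:117937395-117937424, - strand: aggtaggaCCAGttccctCCAGactgctgg
Dll1, chr17:15375967-15375996, - strand: ggcaggcgCCAGcccgggCCAGatcctccg
The changes of these 3 genes went both ways: Ankrd35 and Fxyd4 fell by 2.06 and 1.74 on the log2 scale, and Dll1 rose by 1.83. A match of letters is not a bound site.

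The split of a gene's FPKM among its RefSeq transcripts was estimated by the authors' software. Of 4502 transcripts in 1667 genes, 154 passed at an adjusted p under 0.05 in share, and 14 of them, in 8 genes, with a difference of at least 20 percentage points (0.311%). For Pfdn4, a prefoldin subunit, the entry NM_001013369 took 14.4%, 40.5%, 41% and 43.1% of the gene's FPKM in wild type and 74.8%, 66.6%, 70.5% and 72.9% in the knockout (difference 36.4 points, SE 7.0, adjusted p = 0.0224), while the gene as a whole stood at 36.7 and 37.2 FPKM. For Rpl38, a ribosomal protein, NM_001048057 took 47.4% to 56.1% and 14.7% to 27.1%. For Lonp2, a peroxisomal protease, the entry NM_001168591 took 26%, 4.8%, 28.7% and 7% and then 44.1%, 41.3%, 45.6% and 33%. Slc44a2, Shroom3 and Mideas also passed. The count rested on single libraries: it was 3 without knockout replicate 4 and 5 without wild-type replicate 2.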

How the data were processed

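Total RNA taken up in Trizol was made into TruSeq libraries, per the labels' protocols. The submitters' processing notes name CASAVA 1.8.2, Cufflinks without a version, and build mm9. No aligner is given in the sources used here. What the authors deposited is 1 table of FPKM, with bounds, for 30761 RefSeq transcripts in 12 libraries, per the file headers. FPKM hold no read depth, so no count test was used.

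Entries were named from RefSeq and GENCODE tables (98.8% matched) and summed per symbol, and 7 genes with a failed estimate were left out. Genes with at least 1 FPKM in 4 libraries were tested on log2(FPKM + 1), so changes of low genes are understated, with limma 3.58.1 in R 4.3.3 (eBayes with trend, 1 mean per group over the 12 libraries). Adjusted p-values are limma's, two-sided, Benjamini-Hochberg over 12329 genes, with a threshold of 0.05. Whether libraries are from separate cultures is not stated, so a p-value reflects only how these samples vary, which may be technical variation. Transcript shares were tested in the same way. On simulated data the fit was tested with 200 changed genes. Python 3.11.15 and pandas 2.3.3 were used.

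The comparison, its 26 lists, 9 marker lists and tests were chosen with earlier results of these data known. Genes were named by rule: Tfcp2l1 and the called genes within 1 Mb, the 20 largest rises and falls with groups that do not overlap and at least 2 FPKM (1 per set of copies, unnamed models left out), the 4 smallest adjusted p per list and 3 per marker list, the highest member not called, silent genes, runs and 6 transcripts. Other members were named after their values were seen, and a few genes are not reported here. Of the listed symbols, Itga10, Rhox5, Col12a1, Polr2a, Zscan4e, Dux, Cd68 and Hbb-b1 were not matched. Alternatives were other pseudocounts, filters, scalings, thresholds and weights, the 8 libraries alone, the replicate number as a block, the fibroblast marker level as a covariate, removal of the chromosome 6 offset, the highest entry per symbol, and leaving out each library.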

Additional observations from a re-analysis of the deposited data

Results flagged for a closer look

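Among 346 groups of 4 libraries of the named genes, 13 held 1 library far from the other 3. Its gap passed Dixon's 95% critical value, which chance gives in about 1 group in 20. The 13 flags do not exceed that rate, so each may be chance alone. In the knockout, replicate 4 was low for Ct55 (11.8 FPKM) and high for Adh1 (0.753 FPKM) and Gsto1 (43.9 FPKM). Knockout replicate 1 was low for Ctnnb1 (175 FPKM) and Efnb1 (2.59 FPKM), and replicate 3 for Itgb4 (1.76 FPKM). In wild type in 2i, replicate 3 was low for Birc5 (109 FPKM) and Jup (27.7 FPKM) and high for Alox12 (2.45 FPKM) and Nkx2-5 (1.06 FPKM). Wild-type replicate 1 was low for Fxyd4 (1.94 FPKM) and high for Psma5 (7.66 FPKM), and replicate 2 was high for Clstn1 (38.1 FPKM).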

How the results depend on the processing

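The count of 5589 called genes stayed within 1.5 times under the other scalings, filters, weights and pseudocount (4057 to 7168), and ran from 4710 to 5922 without 1 library. With the fibroblast marker covariate it was 1987 (834 higher, 1153 lower), and 113 of the main calls then had the opposite sign, among them Dab2 (-0.05) and Thbd (-0.00). At an adjusted p under 0.01, 1960 were higher. At a log2 change of at least 1 there were 358 (160 higher, 198 lower), and with a pseudocount of 0.1 there were 747 (415 and 332); without 1 library 328 to 409 (136 to 198 higher, 188 to 212 lower). Rises alone ran from 2520 to 3065 and falls from 2187 to 2857 without 1 library. The log2 change of Tfcp2l1 ran from -0.81 to -0.69. Of 151 named genes called, 121 kept direction and call under each alternative run that tested them. With the filter of 5 FPKM, 138 named genes were tested, so lower ones were not checked there. The 14 transcript shares became 8 in the 8 libraries alone, 3 at 30 points or more, and 3 to 15 without 1 library. Whether replicate numbers pair the libraries is not settled: residuals of same-numbered libraries correlated at 0.055, 0.258, 0.216 and 0.194 across genes. In the last 3 pairs each library correlated best with its own number, but wild-type replicate 1 did so with knockout replicate 3 (0.154), so the pairing was not used. With a replicate block 5567 genes and 9 transcript shares were called. Causes of these changes were not tested. Depth is unknown, so levels near 0 are not shown to be absent.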
